A study of Haplochromis burtoni and Lepidiolamprologus elongatus and Tropheus moorii with 25 samples.

Results

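Intestinal cells of 6 algae- or plant-feeding cichlid species were compared with those of 4 fish-eating species, from a single-cell RNA series of 25 African cichlid species with 1 library per species. The algae side held Tropheus moorii, Petrochromis orthognathus, Simochromis diagramma, Limnotilapia dardennii, Eretmodus cyanostictus and Telmatochromis vittatus. The fish side held Lepidiolamprologus elongatus, Lepidiolamprologus attenuatus, Boulengerochromis microlepis and Bathybates ferox. The labels name the species and the tissue, whole intestine, and no genotype, treatment, age, sex, diet or number of fish per library. Diets and tribes (groups of related genera) were assigned from the known biology of the species, so they are not measured here. Telmatochromis vittatus is the least certain of them, since it is also described as an omnivore that takes algae, and it was the exception on the algae side in several results. Without it, edgeR called 19 features higher and 7 lower in enterocyte-like cells, against 2 and 0 with it. Leaving out Eretmodus instead gave 9 higher and 1 lower. Telmatochromis is also the only Lamprologini species on the algae side, so leaving it out removes a tribe that both sides share. Of the algae feeders, 4 belong to the tribe Tropheini, and both Lepidiolamprologus species share the tribe Lamprologini with Telmatochromis vittatus. Diet and ancestry therefore cannot be told apart in most of what follows. The p-values rest on the spread between libraries, with 1 library per species, and the main tests treat related species as independent.

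Algae grazers live on food rich in carbohydrate and poor in protein and fat, and their intestines are long. Fish eaters take in protein and fat and have short intestines. In the gut lining, enterocytes cut peptides and sugars at their brush border, take them up, and pack dietary fat and fat-soluble vitamins for export. Immune cells, mostly T cells and macrophages, lie between and beneath them.

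The 10 libraries held 2458 to 5413 kept cells and 6927767 to 31659955 transcript tags (UMIs), so Petrochromis and Simochromis, the shallowest, gave the least precise values. Any pair of these libraries shared at most 10 cell barcodes. Enterocyte markers (fatty-acid-binding, apolipoprotein and peptidase genes) were found in every library, at a summed level of 3485 to 11450 CPM (UMIs of the feature per 1000000 UMIs of the sum) in the algae feeders and 6228 to 28180 CPM in the fish eaters. Markers of acid-secreting stomach cells summed to 467.9 CPM in Lepidiolamprologus elongatus and to at most 1.16 CPM in the other 9 libraries.

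The comparison was made on 3 kinds of sums: all kept cells of a library, its enterocyte-like cells, and its T- or NK-like cells. In whole-library sums, no gene passed the threshold in either direction (edgeR's quasi-likelihood test, Benjamini-Hochberg adjusted p under 0.05; 0% of 17699 features tested), and the smallest adjusted p was 0.0941. At an unadjusted p under 0.05, 1097 features (6.20%) were higher and 1150 (6.50%) lower in algae feeders, and DESeq2 called 385 and 244. In 267 features (1.51%) every algae feeder lay above every fish eater, and in 212 (1.2%) every fish eater lay above every algae feeder. In enterocyte-like sums, 2 of 9658 features (0.0207%) were called higher in algae feeders and 0% lower, where DESeq2 called 120 and 41. There, 111 features (1.15%) lay above and 98 (1.01%) below without overlap, and an unadjusted p under 0.05 was reached by 425 (4.40%) above and 367 (3.80%) below. In T- or NK-like sums, 0% of 10207 features were called in either direction. An unadjusted p under 0.05 was reached there by 418 (4.10%) above and 450 (4.41%) below, 117 (1.15%) and 90 (0.882%) did not overlap, and DESeq2 called 91 and 66.

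The called features included LOC100695806, which carries only an automatic identifier and has no gene name in the files. It was at 12.4 to 152 CPM in enterocyte-like cells of the algae feeders, with a median of 51.2. In the fish eaters its level was 0.635 CPM in L. elongatus, 0.525 in L. attenuatus, 0.241 in Boulengerochromis and 0.0998 in Bathybates. The sides did not overlap, but the fish eaters' values rested on 2, 1, 4 and 1 UMIs. The log2 difference was 7.61 (SE 0.996, edgeR adjusted p = 0.0247). Without L. elongatus (adjusted p = 0.130), L. attenuatus (0.0963), Boulengerochromis (0.0639), Bathybates (0.137) or Petrochromis (0.0566) it missed the threshold, as it did with tribes as units (0.382). With Lamprologini membership as a term, which compares Telmatochromis with its Lepidiolamprologus relatives and the rest among themselves, the adjusted p was 0.0249.

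Levels of LOC100695806 by cell class are plain CPM of the cells of a class, in libraries with enough of them. In enteroendocrine-like cells, the hormone-making cells of the gut, 4 algae feeders spanned 0 to 37.1 CPM and 3 fish eaters 0 to 23.2 CPM. Goblet-like cells (1.69 to 111.2 against 0 to 31.5 CPM) and lysosome-rich-enterocyte-like cells (13.6 to 42.9 against 0 to 17.7 CPM) overlapped too. In fibroblast-like cells the order was turned, with 0 to 1.95 CPM in algae feeders (median 0) and 0 to 30.99 CPM in fish eaters (median 10.7). In enterocyte-like cells by the same measure the algae feeders spanned 14.3 to 118.2 CPM and the fish eaters 0.108 to 0.555 CPM. The sides thus overlapped in these 4 other classes and lay apart in enterocyte-like cells. They also lay apart in tuft-like cells, at 5.56 to 24.2 CPM in 4 algae feeders and 0 to 3.475 CPM in 2 fish eaters. The same held for cells of unnamed clusters (2.78 to 48.1 against 0 to 2.29 CPM). Whether the difference itself varied between classes was not tested. Across the 15 libraries outside the comparison, LOC100695806 in whole-library sums ranged from 0 to 74.3 CPM (median 26.2), against 4.76 to 21.9 CPM in the algae feeders and 0.766 to 1.58 CPM in the fish eaters. Of the 15, 2 lay within the range of the algae feeders and 1 within that of the fish eaters. Shuja horei, a relative in the Tropheini, held 11.4 CPM. Julidochromis ornatus, a Lamprologini relative of the Lepidiolamprologus species, held 42.04 CPM, above every algae feeder. So did the Lamprologini Neolamprologus brevis (31.7 CPM) and Neolamprologus brichardi (74.3 CPM), and Haplochromis burtoni of the Haplochromini (54.2 CPM).

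A few enterocyte genes above in every algae feeder did not pass the test. The small membrane protein gene smim24 was at 211 to 1092 CPM in algae feeders (median 567). In the fish eaters it was at 69.9 CPM in L. elongatus, 37.3 in L. attenuatus, 66.2 in Boulengerochromis and 56.7 in Bathybates. It differed by 3.46 on the log2 scale (SE 0.562, edgeR adjusted p = 0.0695), with Petrochromis and Simochromis highest. The facilitative glucose transporter slc2a12 (GLUT12) was at 329 CPM in Telmatochromis, 364 in Eretmodus and 401 in Limnotilapia, against 95.4 in Tropheus, 75.5 in Petrochromis and 117 in Simochromis. All of these lay above the fish eaters, at 37.5 CPM in L. elongatus, 25.7 in L. attenuatus, 35.0 in Boulengerochromis and 24.1 in Bathybates (log2 difference 2.92, SE 0.597, adjusted p = 0.103). The unnamed LOC100703330 reached 3316 CPM in Tropheus, 3197 in Limnotilapia, 2294 in Eretmodus and 1670.0 in Simochromis, but 366 in Petrochromis and 34.8 in Telmatochromis. The fish eaters were at 1.81 to 7.31 CPM, and the log2 difference of 8.48 (SE 1.29) had an adjusted p of 0.0616.

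Further genes above in algae feeders without overlap were lower or more variable. The sulfotransferase gene sult6b1 was at 34.8 to 135 CPM against 0 to 33.4 CPM, and grb14, an adaptor that restrains insulin receptor signalling, at 26.3 to 118 CPM against 0 to 17.8 CPM. For aifm2, a coenzyme Q reductase that protects lipids from peroxidation, Simochromis alone held 84.3 CPM and the other algae feeders 4.95 to 13.5 CPM, against 0 to 4.69 CPM. Their edgeR adjusted p-values ran from 0.394 to 0.602, so none passed the threshold across all features.

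**Figure D1:**
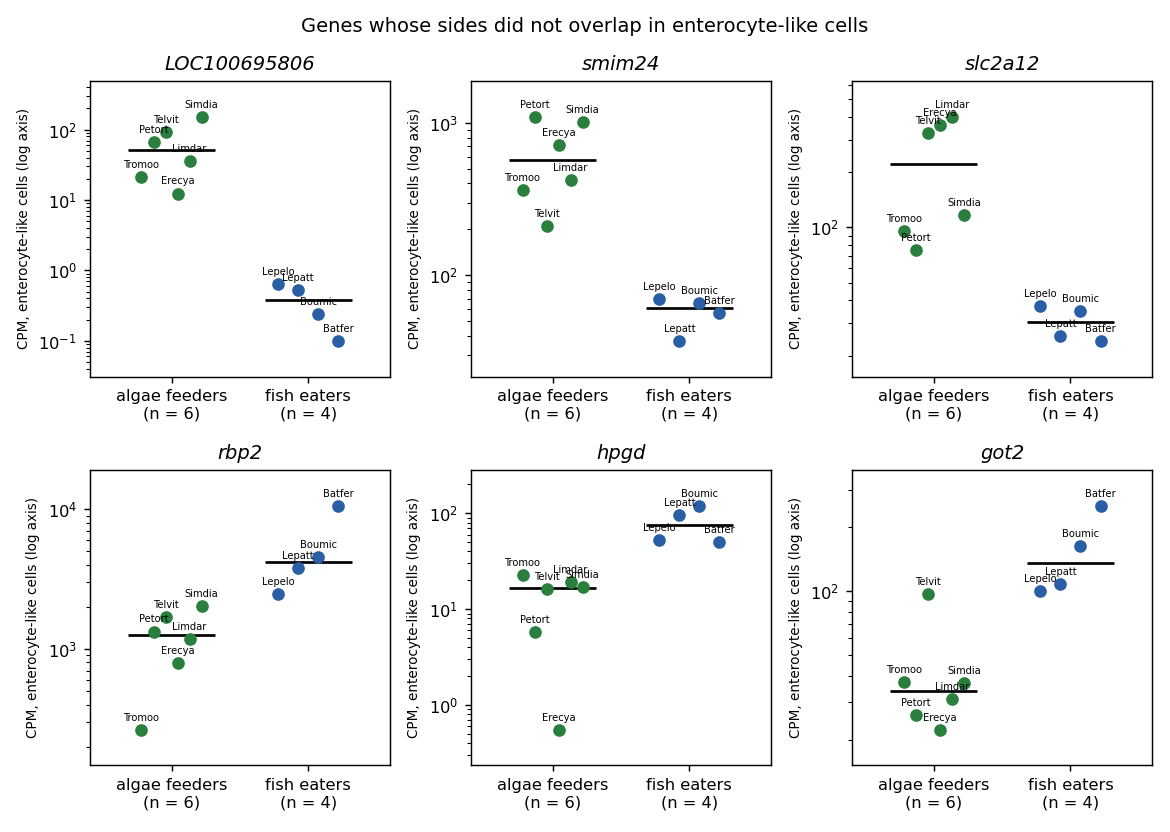
CPM in enterocyte-like cells (log axes) of 6 features named by one rule, with 1 point per library, codes made of the first 3 letters of genus and species, and lines at the median of each side. Of these 6, LOC100695806 alone passed the test across all features; smim24 and slc2a12 also lie above in every algae feeder, and rbp2, hpgd and got2 below.

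Genes lower in algae feeders were led by rbp2, the cellular retinol-binding protein with which enterocytes hold newly absorbed vitamin A. In whole-library sums the algae feeders held 59.7 to 398 CPM (median 242). The fish eaters held 644 CPM in L. elongatus, 929 in L. attenuatus, 3873 in Boulengerochromis and 7395 in Bathybates. The sides did not overlap, and the difference was -3.94 on the log2 scale (SE 0.772, edgeR adjusted p = 0.163). In enterocyte-like sums it stood at 265 to 2043 CPM in algae feeders (median 1256) and at 2491, 3780.0, 4581 and 10630.0 CPM in the same order of fish eaters, a log2 difference of -2.14 (SE 0.542, adjusted p = 0.214). In T- or NK-like sums, algae feeders held 2.45 to 41.1 CPM and fish eaters 47.7, 93.5, 122 and 365 CPM (log2 difference -3.03, SE 0.711, adjusted p = 0.237). The summed enterocyte markers in these T- or NK-like sums were 110.3 to 1384 CPM in algae feeders and 242.6 to 1143 CPM in fish eaters, and the part of free transcripts caught in droplets was not tested. By plain CPM the sides of rbp2 overlapped in T- or NK-like cells (2.73 to 45.5 against 39.7 to 364.8 CPM). By that measure they lay apart in enteroendocrine-like cells (18.5 to 174.6 against 625.2 to 2599 CPM) and in macrophage- or dendritic-like cells (3.27 to 19.4 against 41.8 to 397.1 CPM).

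The gene rbp2 was 1 of 10 features whose sides were apart in all 3 sums, of which 5 lay above in algae feeders and 5 below. Those with a gene name were banf1, which binds DNA at the nuclear envelope, and thumpd2 above, and rbp2, rbm48 and usp31 below. Of these, thumpd2, rbm48 and usp31 were picked out by this count. Whole-library sums contain the cells of both class sums, so the 3 sums are not separate. The share of features to be found apart in all 3 without a difference was not worked out. In enterocyte-like sums alone 1.15% of all features lay above and 1.01% below without overlap. The unnamed LOC100697934 was also among the 5 below. In whole-library sums it was at 0.212 to 52.8 CPM in algae feeders and at 1211 CPM in L. elongatus, 660.4 in L. attenuatus, 630.0 in Boulengerochromis and 672 in Bathybates (log2 difference -5.45, SE 1.13, edgeR adjusted p = 0.178). Among the algae feeders Eretmodus and Telmatochromis held most, 52.8 and 41.7 CPM, and the other 4 at most 6.13 CPM. Another unnamed feature, LOC100709359, had no UMI in Tropheus or Eretmodus and at most 5.94 CPM, in Telmatochromis, among the other algae feeders. The fish eaters ranged over far more, with 10.1 CPM in L. elongatus, 89.5 in L. attenuatus, 96.5 in Boulengerochromis and 729.5 in Bathybates.

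**Figure D2:**
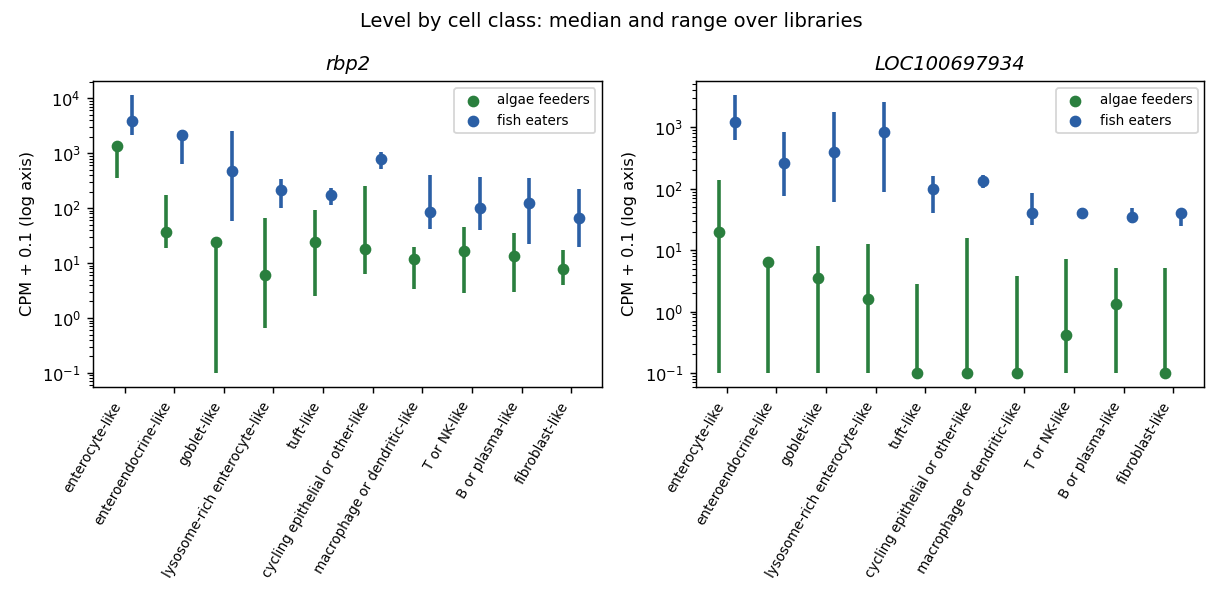
Levels of rbp2 (left) and LOC100697934 (right) in 10 cell classes, as CPM plus 0.1 on a log axis; points are medians and lines the lowest to highest library of each side. The median of both is lower in algae feeders in each class drawn, with enterocyte-like cells at 355.5 to 1591 against 2176 to 11520.0 CPM for rbp2 and at 0 to 140.5 against 612.7 to 3364 CPM for LOC100697934.

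Within the retinoid list, retinol saturase (retsat), which reduces retinol, stood the other way from rbp2 in enterocyte-like sums. It was at 40.6 to 274 CPM in algae feeders and at 24.9 to 98.7 CPM in fish eaters (log2 difference 1.43, SE 0.593), and the sides overlapped. Of the list's 10 members tested in whole-library sums, 9 were lower in algae feeders, 2 of them at an unadjusted p under 0.05 (6.50% over all features), with a median log2 difference of -0.672 against -0.0147 over all features. In enterocyte-like sums 5 of 8 were lower, with a median of -0.141 against -0.0328.

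Whole-library sums mix cell classes, and the enterocyte-like cells made up 4.66% to 26.8% of a library's UMIs in algae feeders and 19.6% to 53.5% in fish eaters. In such sums fewer cells of a type and less RNA per cell cannot be told apart. Beside that, the list of fat absorption and export, of which 22 of 38 symbols were found, had 21 members tested, of which 10 were lower and 1 higher in algae feeders at an unadjusted p under 0.05 (6.50% and 6.20% over all features), and its median log2 difference was -1.30. Within enterocyte-like sums 19 members were tested, 1 lower and 1 higher (3.80% and 4.40% over all), and the median was -0.161. The list thus stood apart from the background in whole libraries and near it within enterocyte-like cells. Its members fabp1, fabp2, apoa4a, apoa4b, mttp and apo14kda are also markers from which that class was named. How far choosing cells by these genes sets the value within the class was not tested. None of its members passed the adjusted threshold in either.

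The fatty-acid carrier slc27a4 (FATP4) was the fat-absorption gene whose sides did not overlap in enterocyte-like cells. Its level there was 79.2 CPM in Tropheus, 2.90 in Petrochromis, 138 in Telmatochromis, 106 in Eretmodus, 157 in Limnotilapia and 40.5 in Simochromis. In the fish eaters it was 170.3 CPM in L. elongatus, 194 in L. attenuatus, 205 in Boulengerochromis and 409.9 in Bathybates. Limnotilapia and L. elongatus nearly met, and the log2 difference was -1.48 (SE 0.673, edgeR adjusted p = 0.604). By plain CPM, without the scaling used for the tests, the sides of slc27a4 overlapped there, at 3.10 to 174.5 against 148.8 to 444.2 CPM. In whole-library sums apoa4a, an apolipoprotein of newly made fat particles, was at 414 to 3395 CPM in algae feeders and at 4075, 5371, 15950.0 and 3162 CPM in L. elongatus, L. attenuatus, Boulengerochromis and Bathybates. Boulengerochromis stood far above the rest, and Eretmodus lay above Bathybates. The lipoprotein receptor scarb1 overlapped more, with 21.8 to 54.1 CPM in algae feeders and 22.3 to 276 CPM in fish eaters.

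The liver-type fatty-acid-binding protein fabp1 was very uneven. It is also one of the markers from which the class was named, so its levels are a description. In enterocyte-like cells it held 11180.0 CPM in Petrochromis, 1418 in Simochromis, 242 in Limnotilapia, 34.0 in Telmatochromis, 1.65 in Tropheus and no UMI in Eretmodus. The fish eaters lay between 2.50 CPM in Bathybates and 64.0 CPM in Boulengerochromis, inside the algae feeders' range. The same 2 libraries differed in the makeup of the class, since 86.8% of the enterocyte-like cells of Petrochromis and 91.1% of those of Simochromis fell in 1 cluster, of which fabp1 is a leading gene. In 6 of the other 8 libraries the largest part of the class fell in another cluster. In 2 fish eaters it fell in clusters that led no algae feeder, with 44.8% of the class in 1 cluster in L. attenuatus and 51.1% in another in Boulengerochromis. The part of these differences in makeup in the enterocyte-like comparisons was tested in 2 alternatives only. LOC100695806 kept its call in the largest cluster taken alone (adjusted p = 0.0329) and lost it without Petrochromis and Simochromis (0.0659).

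Most genes of protein digestion also lay lower in algae feeders, by less in enterocyte-like cells than in whole libraries. The peptidase genes enpep and naaladl1 are also markers from which the class was named, and their part in this was not tested. Of 16 brush-border and cytosolic peptidases tested in whole-library sums, 4 were lower in algae feeders at an unadjusted p under 0.05 (6.50% over all features), 3 lay above, and the median log2 difference was -1.07. In enterocyte-like sums the median was -0.127 (-0.0328 over all), which changed sign in 2 of 18 fits, the main one included. There, 3 of 15 were lower at that level (3.80% over all) and 4 lay above. The 2 with no overlap there (1.01% of all features lay below without overlap) were both enzymes for proline-containing peptides, which are common in collagen. Aminopeptidase P (xpnpep2) was at 86.6 to 303 CPM in algae feeders (median 217) and at 410.2 CPM in L. elongatus, 359.5 in L. attenuatus, 422 in Boulengerochromis and 596 in Bathybates. Prolidase (pepd) was at 96.7 to 482 CPM in algae feeders (median 309) and at 554, 523, 989.6 and 668 CPM in the same order. Simochromis was lowest for both. By plain CPM, without the scaling used for the tests, the sides of both genes overlapped in enterocyte-like cells. The ranges were then 67.4 to 350.1 against 295.1 to 645.7 CPM for xpnpep2, and 75.3 to 448.6 against 429.6 to 980 CPM for pepd. The log2 differences were -1.10 (SE 0.394) and -1.24 (SE 0.463), and their adjusted p-values, 0.433 and 0.451, did not pass.

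Most enzymes of amino acid breakdown also lay lower in algae feeders, in both kinds of sums. Of 24 tested in whole-library sums, 6 were lower and 2 higher at an unadjusted p under 0.05 (6.50% and 6.20% over all features), 5 had a positive difference, and the median log2 difference was -0.438 (-0.0147 over all). In enterocyte-like sums 4 of 21 were lower, 0 higher and 5 positive (3.80% lower and 4.40% higher over all), with a median of -0.296 (-0.0328 over all). Mitochondrial aspartate aminotransferase (got2) was at 22.3 to 97.7 CPM in enterocyte-like cells of algae feeders, with Telmatochromis far above the other 5. The fish eaters were at 100.1 CPM in L. elongatus, 109 in L. attenuatus, 164 in Boulengerochromis and 254 in Bathybates, above every algae feeder (log2 difference -1.90, SE 0.482, edgeR adjusted p = 0.214).

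Sugar digestion and transport showed no common direction in enterocyte-like cells. Of 8 genes tested, 4 had a positive difference, with a median of 0.038. At an unadjusted p under 0.05, 0 were lower and 1 higher (3.80% and 4.40% over all features). The 1 higher was trehalase (treh), the brush-border enzyme that splits the disaccharide trehalose of algae, fungi and insects. It was at 35.6 CPM in Tropheus, 84.2 in Petrochromis, 43.3 in Telmatochromis, 170.0 in Eretmodus, 366 in Limnotilapia and 149.5 in Simochromis. The fish eaters were at 0.953 CPM in L. elongatus, 1.57 in L. attenuatus, 53.1 in Boulengerochromis and 12.7 in Bathybates, so Boulengerochromis lay within the algae range (log2 difference 3.03, SE 1.08, edgeR adjusted p = 0.433). In whole-library sums 3 of 10 members of this list were positive, with a median of -0.665. At an unadjusted p under 0.05, 2 were lower and 1 higher there (6.50% and 6.20% over all features). In the same sums pck1, the control point of glucose production from amino acids, was at 1.55 to 12.99 CPM in 5 algae feeders but at 175 CPM in Telmatochromis. The fish eaters were at 41.6 CPM in L. elongatus, 65.5 in L. attenuatus, 738 in Boulengerochromis and 475 in Bathybates. The glycolytic enzyme gapdh was lower in every algae feeder in whole-library sums, at 197 to 1342 CPM against 2169 to 3628 CPM (log2 difference -1.96, SE 0.475, adjusted p = 0.210), as was pgk1, at 77.3 to 157 CPM against 182 to 263 CPM. In enterocyte-like sums gapdh overlapped, at 1365 to 4003 CPM in algae feeders and 2785 to 13270.0 CPM in fish eaters. The glycolysis list as a whole did not lie lower, with 6 of 11 members positive in whole-library sums (median 0.055) and 6 of 9 in enterocyte-like sums (median 0.361).

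Most genes of cholesterol synthesis were higher in algae feeders in enterocyte-like cells. In enterocyte-like sums 13 of 15 genes of cholesterol synthesis had a positive log2 difference, 3 at an unadjusted p under 0.05 and 1 below at that level (4.40% and 3.80% over all features), and their median was 1.08, with 0.338 to 1.45 over the alternatives. Of the 3, ebpl is a relative of the listed gene ebp, matched by its symbol's ending. In whole-library sums 13 of 18 were positive with a median of 0.302, which changed sign in 2 of 24 fits, the main one included. In T- or NK-like sums 3 of 7 were positive with a median of -0.011. None passed the adjusted threshold in any of the 3. The member lying below was insig1, a brake on this pathway, at 0 to 5.81 CPM in algae feeders and at 8.26 CPM in L. elongatus, 28.9 in L. attenuatus, 2.17 in Boulengerochromis and 22.9 in Bathybates. Of 8 genes of fatty-acid synthesis and elongation tested there, 6 were positive, with 1 higher and 1 lower at an unadjusted p under 0.05. The polyunsaturated fatty-acid elongase elovl5 was at 48.9 to 182 CPM in algae feeders and at 276, 251, 621 and 135 CPM in the fish eaters in that order. Its relative elovl6, which lengthens saturated fatty acids, was at 189 CPM in Telmatochromis, 145 in Simochromis and 109.7 in Eretmodus, and at 14.8 to 22.8 CPM in the other 3 algae feeders. The fish eaters were at 0.299 to 20.0 CPM. Tropheus (14.8 CPM) and Petrochromis (17.4 CPM) lay within that range, and Limnotilapia (22.8 CPM) lay just above it.

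The proteasome, the complex that degrades tagged proteins, showed small differences in 1 direction. Of its 26 subunits tested, 25 had a positive difference in whole-library sums (median log2 difference 0.389), 24 in enterocyte-like sums (0.579) and 25 in T- or NK-like sums (0.224). None passed the adjusted threshold, and only 1 subunit, in enterocyte-like sums, reached an unadjusted p under 0.05. The subunits share libraries, so the count is 1 pattern over 10 libraries. Over the fits run on whole-library sums, the main one included, the median changed sign in 1 of 24. It stayed above 0 in all fits run on the other 2 sums.

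**Figure D3:**
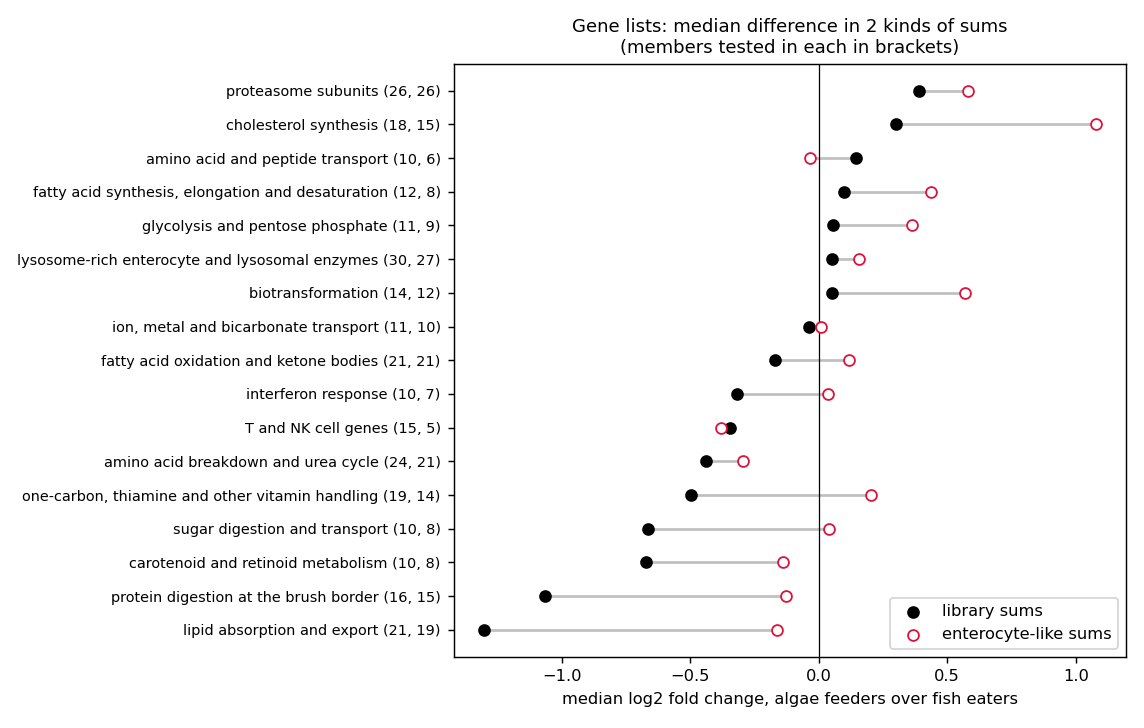
Median log2 fold change (algae feeders over fish eaters) of 17 gene lists in whole-library sums (filled) and enterocyte-like sums (open), with members tested in brackets. Lists of fat absorption and protein digestion lie at -1.30 and -1.07 in whole libraries and at -0.161 and -0.127 in enterocyte-like cells, while cholesterol synthesis lies at 0.302 and 1.08.

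Genes that process foreign compounds and oxidised fat showed no common course in whole-library sums (7 of 14 positive, median log2 difference 0.050) and lay mostly higher in enterocyte-like sums (10 of 12 positive, 3 at an unadjusted p under 0.05 where 4.40% of all features were, median 0.569). Soluble epoxide hydrolase (ephx2) was at 15.3 to 133 CPM in algae feeders, highest in Tropheus, and at 0.953 to 19.9 CPM in fish eaters. The glutathione transferase mgst3 was at 151 to 773 CPM against 88.2 to 267 CPM. The dioxin-inducible cyp1a was high in 2 algae feeders in whole-library sums, at 392 CPM in Telmatochromis and 162 CPM in Simochromis. The other 4 held 11.5 to 41.5 CPM and the fish eaters 11.8 to 17.6 CPM.

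Other genes lower in every algae feeder in whole-library sums served creatine synthesis, branched-chain fat breakdown and cell contacts. The guanidinoacetate methyltransferase gene gamt was at 8.05 to 303 CPM (median 134) and at 341 CPM in L. elongatus, 706 in L. attenuatus, 2218 in Boulengerochromis and 596 in Bathybates. By plain CPM its sides overlapped, at 10.97 to 361.8 against 312.2 to 1659 CPM. The hydroxylase phyh, which starts the breakdown of phytanic acid, a branched fat taken in with food, was at 9.74 to 40.9 CPM (median 25.2) and at 47.1, 64.3, 243 and 168 CPM in that order (log2 difference -2.35, SE 0.507, edgeR adjusted p = 0.178). The desmosome protein pkp2 was at 0.623 to 7.02 CPM and at 25.5, 41.0, 127 and 8.67 CPM. In each, Boulengerochromis was the highest library. Within enterocyte-like cells the sides of gamt, phyh and pkp2 overlapped by plain CPM, though the median of the algae feeders was lower for each. The ranges there were 148.8 to 1143 against 928.4 to 2609 CPM for gamt and 57.5 to 164.3 against 157.9 to 242.4 CPM for phyh. For pkp2 they were 0 to 11.9 against 7.79 to 105.9 CPM. The remaining named genes of this direction were sult1a4, cdr2, kctd14, cers1, thumpd1 and slc37a4, with log2 differences from -2.78 to -1.67 and adjusted p-values from 0.210 to 0.288. They lay lower in every algae feeder only with the scaling used for the tests. By plain CPM the sides of each of them overlapped. In enterocyte-like sums hpgd, which inactivates prostaglandins, pcyt1b, of phosphatidylcholine synthesis, and nfs1, which frees sulfur for iron-sulfur clusters, also lay below without overlap. For hpgd the algae feeders held 0.554 to 22.9 CPM and the fish eaters 52.7, 96.6, 120.5 and 49.9 CPM (log2 difference -2.53, SE 0.692, adjusted p = 0.259).

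Cell classes made up different shares of the 10 libraries, but none of 9 shares tested passed an exact permutation test over libraries (2-sided, adjusted over the 9). Enterocyte-like cells were 9.62% ± 4.15 (SD, n = 6) of the cells in algae feeders and 17.5% ± 8.78 (SD, n = 4) in fish eaters (exact p = 0.0857, adjusted p = 0.386). By library they were 9.66% in L. elongatus, 10.7% in L. attenuatus, 22.3% in Boulengerochromis and 27.6% in Bathybates, and 5.42% to 17.3% in the algae feeders. The Lepidiolamprologus species thus lay inside the range of the algae feeders, and the other 2 fish eaters above it. The difference of -7.93 points became -4.59 without Bathybates and -10.6 without L. elongatus. T- or NK-like cells, at 45.9% ± 17.8 (SD, n = 6) and 46.8% ± 19.7 (SD, n = 4), were close in mean (exact p = 0.933, adjusted p = 0.933). The 3 Lamprologini libraries held 61.1% to 78.0%, Eretmodus 55.7% and the other 6 libraries 29.7% to 38.8%, a description seen in the data.

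Macrophage- or dendritic-like cells were 11.3% ± 5.61 (SD, n = 6) in algae feeders and 5.31% ± 1.02 (SD, n = 4) in fish eaters (exact p = 0.0571, adjusted p = 0.386). All algae feeders but Telmatochromis, at 1.83%, lay between 9.76% and 18.6%, above the 4.22% to 6.41% of the fish eaters. The difference of 6.01 points became 3.33 with tribes as units. In whole-library sums 9 of 10 macrophage and dendritic genes tested had a positive difference, with a median of 0.720. That median changed sign in 1 of 24 fits, the main one included. The master regulator spi1 (PU.1) was at 35.9 to 73.7 CPM in algae feeders and at 23.2 CPM in L. elongatus, 24.6 in L. attenuatus, 18.2 in Boulengerochromis and 16.2 in Bathybates (log2 difference 1.38, SE 0.310, edgeR adjusted p = 0.195). The receptor csf1r, on which macrophages depend, was at 39.8 to 73.4 CPM against 31.6, 37.2, 29.4 and 14.98 CPM (log2 difference 1.08, SE 0.311, adjusted p = 0.237). Per macrophage- or dendritic-like cell sum, csf1r overlapped, at 329.6 to 940.3 CPM in algae feeders and 447.9 to 621.6 CPM in fish eaters. So did spi1, at 240.9 to 542.6 against 218.3 to 308.4 CPM. Both genes are among the markers from which this class was named, so their levels within it are a description. In B- or plasma-like cells spi1 was also present, at 26.6 to 110.6 against 33.6 to 73.4 CPM.

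**Figure D4:**
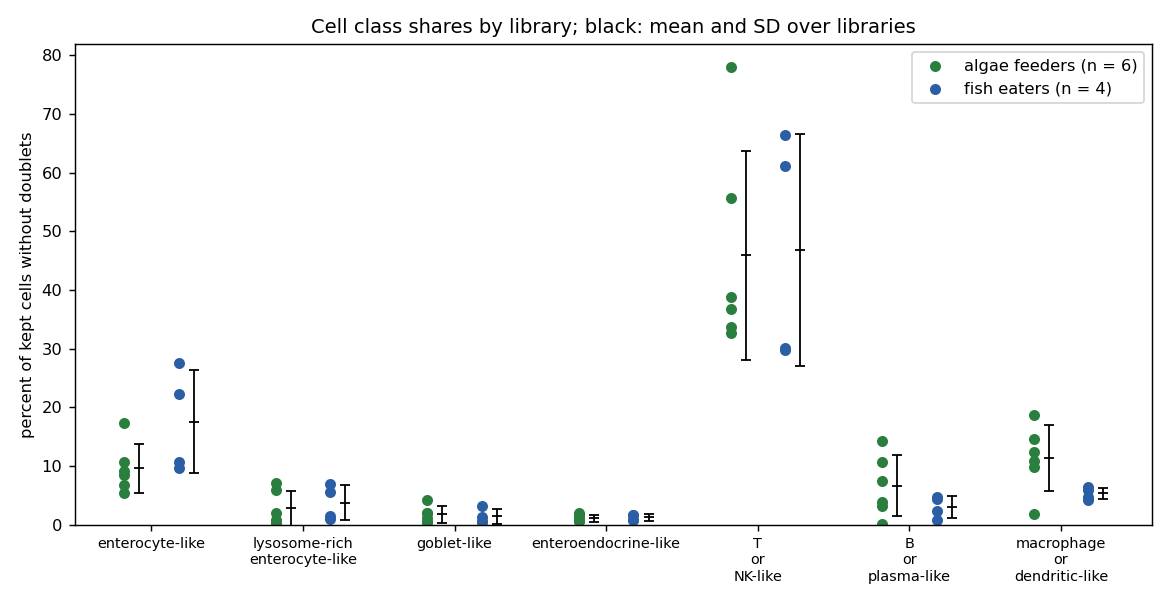
Share of 7 cell classes among kept cells without doublets, with 1 point per library (green, 6 algae feeders; blue, 4 fish eaters) and black marks for the mean and SD over libraries. Enterocyte-like shares overlap, at 5.42% to 17.3% and 9.66% to 27.6%, and macrophage- or dendritic-like shares are separated apart from 1 algae feeder at 1.83%.

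Some secretory and proliferation genes also lay higher in algae feeders. The mucus-cell disulfide isomerase agr2 was at 385 to 695 CPM in 5 algae feeders and 113 CPM in Telmatochromis, against 138 CPM in L. elongatus, 84.8 in L. attenuatus, 235 in Boulengerochromis and 333 in Bathybates. Goblet-like cells did not differ in share beyond the spread (1.75% ± 1.43, SD, n = 6, against 1.40% ± 1.29, SD, n = 4; exact p = 0.724, adjusted p = 0.911). All 10 cell-cycle markers tested in whole-library sums had a positive difference, 8 of them at an unadjusted p under 0.05 (6.20% over all features), with a median of 1.87. Their summed level was 30.9 to 249 CPM in algae feeders, lowest in Telmatochromis, and 9.53 to 50.7 CPM in fish eaters. In enterocyte-like sums it was 171.7 CPM in Tropheus, 60.4 in Simochromis, 34.1 in Petrochromis, 25.2 in Telmatochromis, 19.2 in Limnotilapia and 2.13 in Eretmodus, and 1.67 to 3.70 CPM in the fish eaters. The enterocyte-like sums of 5 algae feeders therefore held more cell-cycle transcripts than those of any fish eater, and their part in the other differences of these sums was not tested.

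Of the immune and secretory lists, genes below in most algae feeders included nccrp1, first described as a receptor of cytotoxic cells in catfish, at 18.6 to 34.8 CPM against 82.4 CPM in L. elongatus, 46.5 in L. attenuatus, 53.4 in Boulengerochromis and 103 in Bathybates (log2 difference -1.55, SE 0.296, edgeR adjusted p = 0.163). In enterocyte-like sums nccrp1 was also present and its sides overlapped, at 13.4 to 89.2 CPM in algae feeders and 41.8 to 131.5 CPM in fish eaters. The cells behind its whole-library difference were not worked out. The interleukin-17 receptor subunit il17rb was high in the 2 Lepidiolamprologus libraries at 137 and 65.3 CPM, against 1.35 to 16.2 CPM in the other 8. The secretory-stress factor xbp1 was at 220.5 to 348 CPM in algae feeders and at 781, 584 and 663 CPM in L. elongatus, L. attenuatus and Bathybates, with Boulengerochromis, at 262 CPM, inside the algae range. The lists of nccrp1 and xbp1 mostly went the other way in whole-library sums. Positive were 5 of 8 granulocyte genes, 8 of 10 B and plasma cell genes and 5 of 7 mucus genes. At an unadjusted p under 0.05, 2, 1 and 1 were lower and 0, 1 and 2 higher (6.50% and 6.20% over all features). In the T and NK cell list of il17rb, 5 of 15 were positive, with 2 lower and 0 higher at that level.

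Within T- or NK-like cells, the named genes above in algae feeders acted in RNA processing, sugar-nucleotide synthesis and transcription. The splicing regulator mbnl1 was at 15.96 to 36.6 CPM (median 25.7) and at 1.88 CPM in L. elongatus, 8.29 in L. attenuatus, 11.6 in Boulengerochromis and 2.13 in Bathybates (log2 difference 2.12, SE 0.520, edgeR adjusted p = 0.260). The acetyltransferase gnpnat1, of UDP-N-acetylglucosamine synthesis, was at 52.2 to 85.2 CPM against 34.6, 17.1, 26.9 and 13.5 CPM. The decapping enzyme dcp2 was at 11.98 to 33.1 CPM against 5.69 to 10.6 CPM, and the transcription factor sp3 at 18.2 to 48.7 CPM against 7.60 to 14.7 CPM. Below without overlap lay sec62, of the channel that moves new proteins into the endoplasmic reticulum, at 15.9 to 33.0 CPM against 142, 55.3, 80.9 and 60.1 CPM (log2 difference -1.79, SE 0.327, adjusted p = 0.163). The peroxidase prdx5 was at 12.5 to 40.7 CPM against 69.2, 68.4, 56.2 and 209.9 CPM, and the ubiquitin ligase rnf103 at 5.24 to 23.9 CPM against 26.5 to 44.1 CPM. By plain CPM, without the scaling used for the tests, the sides of rnf103 overlapped. None of these genes passed the threshold.

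Whole-library and class sums shared part of their non-overlapping features. The whole-library sums contain the cells of the class sums, so some sharing follows from how the sums were made. Of the 267 features above in algae feeders in whole-library sums, 89 were also tested in enterocyte-like sums. There, 21 of the 89 (23.6%) did not overlap in the same direction, against 1.15% over all features. These were 18.9% of the 111 of enterocyte-like sums (1.51% over all features in whole-library sums). Of the 212 below, 160 were tested in enterocyte-like sums and 30 (18.8%) did not overlap there, which were 30.6% of the 98 found there. Enterocyte-like and T- or NK-like sums shared 7 features above and 5 below. The 7 were 8.75% of the 80 above in enterocyte-like sums that were tested in T- or NK-like sums (1.15% over all features there). The 5 were 7.14% of the 70 below (0.882% over all features there).

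On each side the library most often closest to the opposite side was of the Lamprologini. Telmatochromis was the algae feeder nearest to the fish eaters in 39.3% of the 267 features above and 27.4% of the 212 below. Lepidiolamprologus elongatus was the fish eater nearest to the algae feeders in 33.3% and 40.1%. Among 5 related libraries outside the comparison, Shuja horei (Tropheini) lay nearer to the algae feeders' median in 88.4% of the features above and 57.1% of those below, against 67.2% of all features tested. Haplochromis burtoni (Haplochromini) did so in 84.6% and 64.6%, against 62.9%. Of the Lamprologini, Neolamprologus brevis did so in 26.6% and 41.5%, against 39.8%, and Neolamprologus brichardi in 74.5% and 38.2%, against 59.9%. Julidochromis ornatus did so in 39.0% of the features above and 79.2% of those below, against 46.2%, so for features lower in algae feeders it lay with the algae side. These shares are descriptions of single libraries.

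**Figure D5:**
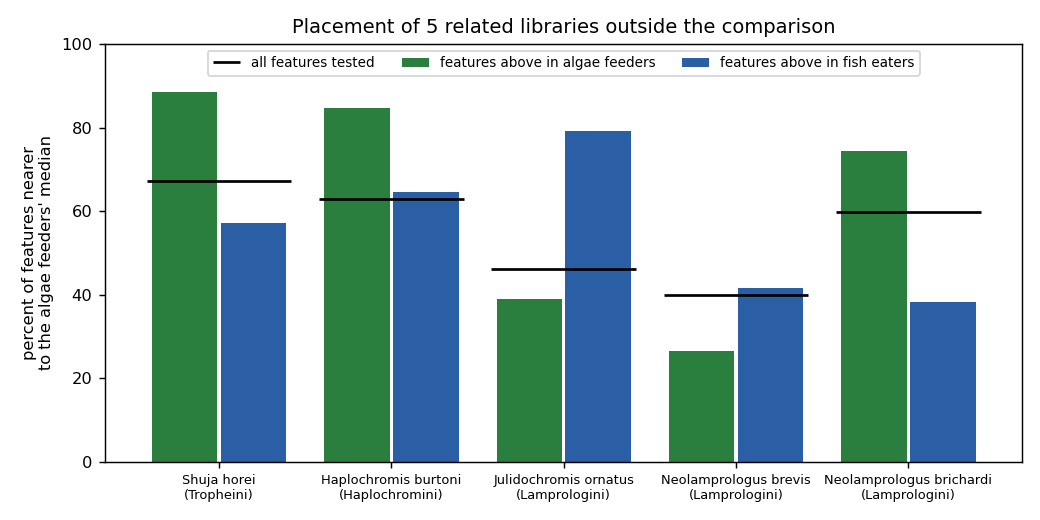
Percent of non-overlapping features (267 above in algae feeders, green; 212 above in fish eaters, blue) in which each of 5 related libraries lay nearer to the algae feeders' median on log2(CPM + 1); black lines give the same for all features tested. Shuja horei reaches 88.4% and Neolamprologus brevis 26.6% of the features above in algae feeders.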

How the data were processed

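Single-cell 3' libraries of intestine (10x Chromium v3.1, per the labels) were used from 10 species. The authors counted reads with Cell Ranger 5.0, per the submitters' processing notes, and deposited raw UMI counts per feature and barcode, with no normalization. Barcodes and feature names are further deposited columns of other kinds. The reference species, build and cell-calling settings are not given in the sources used here, and the effect of a species' divergence from the reference on its counts was not tested. Of 42622 features, 30456 have only a LOC identifier, so many listed genes were not found; il17rel and ebpl entered lists by symbol ending.

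Barcodes below 500 UMIs or 250 genes were dropped. Cells were clustered over the 10 libraries without use of diet (2000 variable genes, 30 principal components, Harmony in numpy, Leiden at resolution 1). Clusters were named from marker lists. The cluster named for acid-secreting stomach cells was not compared. Of its 1240 cells, 33.0% came from Limnotilapia, whose markers of such cells summed to 0.0632 CPM over the whole library. The markers therefore do not bear out the name for those cells. The cluster is still counted as named, and it lies outside the epithelial share. In all, 27 of 37 clusters were named, and 12.5% of cells lay in unnamed clusters. Cells nearest to simulated doublets were left out of classes up to a preset rate (0.8% per 1000 cells of a library), 1428 of 41548 cells. Counts were summed per library, and per class where at least 30 cells and 100000 UMIs were present. Sums were tested with edgeR 4.0.16 (TMM, filterByExpr, quasi-likelihood, no covariate, with DESeq2 as an alternative), and CPM beside tests are TMM-scaled. Whether sides overlapped in a sum was judged on these scaled CPM. Scripts were tested on simulated data. Intervals and exact tests cover counting error and spread between libraries only; a species has 1 library, so replicate spread within a species is unknown. Shares of cells used exact permutation tests.

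The species, lists and markers were chosen with earlier results of these data known. Genes were to be named among called features with a mean of at least 20 CPM in the higher side; since almost none were called, a change made after the fits were seen let groups that did not overlap take the place of a call (12, 6 and 4 genes per direction in the 3 sums), and list members then needed an unadjusted p under 0.05. Libraries were left out in turn, and tribe, filter, normalization, depth, doublets and cell makeup were varied. Sequences were not used here, and 1 result is not reported here. Tools were Python 3.11.15, R 4.3.3, numpy 2.4.6, leidenalg 0.10.2 and matplotlib 3.10.9.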

Additional observations from a re-analysis of the deposited data

Results flagged for a closer look

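Of 164 groups of 4 or 6 libraries examined, 9 had 1 library far from the others by Dixon's gap test; chance gives about 1 in 20. Telmatochromis vittatus stood apart among algae feeders 4 times: lowest for agr2 (113 CPM, next 385 CPM) and for the epithelial share of cells (8.35%, next 17.6%), and highest for LOC100709359 (5.94 CPM, next 0.952 CPM) in whole-library sums and for got2 in enterocyte-like sums (97.7 CPM, next 37.5 CPM). Simochromis diagramma was far above the other algae feeders for aifm2 in enterocyte-like sums (84.3 CPM, next 13.5 CPM). Petrochromis orthognathus was far below them for slc27a4 there (2.90 CPM, next 40.5 CPM). Among fish eaters, Lepidiolamprologus attenuatus was lowest for stard10 (11.97 CPM, next 20.6 CPM) and Lepidiolamprologus elongatus highest for LOC100697934 (1211 CPM, next 672 CPM) in whole-library sums. Bathybates ferox was highest for prdx5 in T- or NK-like sums (209.9 CPM, next 69.2 CPM).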

How the results depend on the processing

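Calls were few and moved with the setting. In whole-library sums DESeq2 called 385 features higher and 244 lower in algae feeders, the Tropheini alone as the algae side 31 and 15, a Lamprologini term 1 lower, the immune share as a term 1 higher, and leaving out 1 library 0 higher and 0 to 1 lower (1 without Boulengerochromis). In enterocyte-like sums DESeq2 called 120 higher and 41 lower, no filter on low counts 19 and 12, tribes as units (3 against 3) 0 higher, the largest cluster alone (chosen after seeing the data, without Petrochromis) 6 and 2, and leaving out Petrochromis and Simochromis (also chosen then) 0 higher. Leaving out 1 library there gave 0 to 19 higher and 0 to 7 lower, both most without Telmatochromis, with 0 higher without Lepidiolamprologus elongatus, Lepidiolamprologus attenuatus or Petrochromis, 1 without Bathybates and 9 without Eretmodus. In T- or NK-like sums DESeq2 called 91 higher and 66 lower, no filter 4 and 3, a Lamprologini term 1 lower, and leaving out 1 library 0 to 16 higher and 0 to 7 lower, again most without Telmatochromis, with 1 higher without Bathybates. The cause was not tested, except that fits without a filter tested more features and those without a library had fewer samples. No call of a class share appeared under any alternative run.

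Over 17 alternatives, LOC100695806 kept its call in 10, with log2 differences of 7.01 to 7.98. Of the named genes, 4 changed sign under 1 alternative: with Lamprologini alone galnt12 (-0.229), pck1 (1.73) and prdm1 (-0.780), and with a Lamprologini term il17rel in enterocyte-like sums (0.114). The difference in shares changed sign for T- or NK-like cells with tribes as units (15.2 points) and over libraries left out (-7.32 to 5.65), and over libraries left out for lysosome-rich-enterocyte-like (-1.92 to 0.125), goblet-like (-0.159 to 0.970) and enteroendocrine-like cells (-0.297 to 0.0493). No paired analysis was possible because the replicate numbers follow accession order and each species has 1 library. Each species had 1 library, 6 against 4, and the spread between libraries was 0.693 (edgeR's biological coefficient of variation) in whole-library sums. Small differences were therefore not detectable there. Large ones missed the threshold too, such as those of rbp2 (log2 difference -3.94, edgeR adjusted p = 0.163) and LOC100703330 (7.40, edgeR adjusted p = 0.163).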
